A study of Mus musculus with 12 samples.

Results

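Ctla4, Icos, Cd28, Foxp3, Cd274 and Lgals9 are 6 mouse genes of T cell checkpoint and costimulation signalling, and their RNA was followed over 12 arrays of sorted B16 melanoma tumors. They were found by gene symbol in the platform annotation, which gave 9 probes, of which 3 belong to Cd28, 2 to Lgals9 and 1 to each of the other 4 genes. All 9 probes passed the filter on detection, so 6 of the 7894 genes tested are described. B16 is a pigmented mouse melanoma line. The samples form 4 groups. Tumor F4 (4 arrays, replicates A to D) and tumor F0 (2 arrays, replicates B2 and B3) are cells that carry the red fluorescent protein tdTomato. Microenvironment F4 (4 arrays) and microenvironment F0 (2 arrays) are the cells without it from the same pools. In every group each array came from a pool of 3 C57BL6 mice bearing tumors that grew under the skin of the right flank from 25000 injected cells and were taken at 100 to 400 mm3. Per the labels, the F4 line had become resistant to earlier checkpoint inhibitor treatment, and the F0 line had not been exposed to it. The labels conflict on treatment during the experiment. The protocol gives mice with either line 3 injections of checkpoint inhibitors together with Fvax, a vaccine of B16 cells that express Flt3 ligand. The treatment tag, in contrast, describes the F0 samples as never treated with such inhibitors and the F4 samples as under treatment. If the tag holds, line and treatment cannot be told apart. F0 and F4 are each 1 line, so the replicates are pools of mice and not independent lines.

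T cells need a costimulatory signal beside that of their antigen receptor. CD28, the product of Cd28, gives it on binding CD80 or CD86 on an antigen-presenting cell, ICOS is a related receptor that activated T cells gain, and CTLA-4, made from Ctla4, binds the same ligands as CD28 more tightly and restrains the cell. FOXP3 is the transcription factor that defines regulatory T cells, which carry CTLA-4 constantly. PD-L1, the product of Cd274, restrains T cells through the receptor PD-1 and is induced by interferon gamma on tumor cells and myeloid cells, while galectin-9, made from Lgals9, binds sugars on several receptors, among them TIM-3. Antibodies that block CTLA-4, PD-1 or PD-L1 are checkpoint inhibitors in use against melanoma.

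In the RefSeq annotation of assembly GRCm38.p6, Cd28, Ctla4 and Icos stand next to one another on chromosome 1, in this order, as neighbouring protein-coding genes. Cd274 lies on chromosome 19 beside Pdcd1lg2, the gene of the other PD-1 ligand, Lgals9 lies on chromosome 11, and Foxp3 lies on the X chromosome. The 250 bases before the start of 3 of the genes are shown because these 3 had different patterns over the fractions: Ctla4 was near the detection limit in most tumor samples, Cd274 was detected in both fractions and lower in tumor cells, and Lgals9 had similar levels in both. The sequences are from RefSeq, build GRCm38.p6, written 5′ to 3′ on the strand of the gene: Ctla4 at chr1:60908775-60909024 on the plus strand, Cd274 at chr19:29367188-29367437 on the plus strand and Lgals9 at chr11:78984925-78985174 on the minus strand. Capitals mark matches, on either strand, to the NFAT core GGAAA, the interferon response element, which is GAAA, any 2 bases and GAAA again, or the gamma-activated sequence TTCNNNGAA. No matches overlap in these windows.
Ctla4: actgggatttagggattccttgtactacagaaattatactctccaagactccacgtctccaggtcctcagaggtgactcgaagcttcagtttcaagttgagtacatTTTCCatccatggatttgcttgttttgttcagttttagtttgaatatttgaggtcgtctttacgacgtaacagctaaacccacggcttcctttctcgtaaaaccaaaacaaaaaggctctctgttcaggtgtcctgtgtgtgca
Cd274: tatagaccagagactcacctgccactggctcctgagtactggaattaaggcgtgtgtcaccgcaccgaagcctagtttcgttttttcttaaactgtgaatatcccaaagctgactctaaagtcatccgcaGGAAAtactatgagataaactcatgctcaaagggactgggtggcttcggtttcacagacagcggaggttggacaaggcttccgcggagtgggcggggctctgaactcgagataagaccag
Lgals9: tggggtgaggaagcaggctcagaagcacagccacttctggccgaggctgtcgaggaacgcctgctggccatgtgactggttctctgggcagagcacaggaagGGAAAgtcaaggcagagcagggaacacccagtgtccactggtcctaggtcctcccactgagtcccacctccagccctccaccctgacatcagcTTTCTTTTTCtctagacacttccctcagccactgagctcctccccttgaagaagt
The NFAT core was found 1 time in each window, 144 bases before the start of Ctla4, 120 before that of Cd274 and 148 before that of Lgals9. It is a short motif that 55.6% of 32851 promoter windows of this length hold. Among these windows the interferon response element was found in that of Lgals9, 55 bases before the start, and 2.98% of all windows hold it. The gamma-activated sequence, held by 7.02% of all windows, was in none of these 3. A match describes letters, and no binding was measured.

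The samples were hybridized to single-colour Illumina bead arrays, and the values below are log2 signals after background correction and quantile normalization. A probe is called detected where its detection p-value is below 0.01. Tumor arrays had 8995 to 10308 detected probes and microenvironment arrays 6808 to 9387. Each fraction had a chip of its own, and F0 samples took the first positions of both chips, so fraction cannot be told apart from chip, nor line from position. The mean log2 signal of the 9 T cell markers tested, of 12 listed, was 4.61 to 8.29 on tumor F4 arrays, 4.38 to 5.44 on tumor F0 arrays, 8.98 to 10.8 on microenvironment F4 arrays and 7.19 to 10.3 on microenvironment F0 arrays. On tumor F0 arrays the markers Cd247, Cd5 and Trat1 were detected on none. An array of the tumor F4 group, A, had a T cell mean of 8.29, against 4.61 to 5.64 on the others of its group. Microenvironment F4 D and microenvironment F0 B3 had melanocyte marker means of 10.7 and 10.6, in the range of the tumor arrays (9.99 to 10.9), against 8.39 to 9.51 on the other microenvironment arrays. Results are therefore also given without these 3 arrays. Melanocyte markers were strong in the microenvironment fraction as a whole. In F4, Pmel averaged 12.9 there and 13.9 in tumor cells, and Dct 12.9 and 13.6. Of the 9 melanocyte markers tested, 6 were detected on every microenvironment F4 array, while Mitf was detected on none. Between the fractions of F4 1 of the 9 passed the test used below, with a median log2 difference of 1.35. Their part in the Cd274 and Lgals9 values was not tested. In bulk samples, fewer T cells and less RNA per T cell cannot be told apart.

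**Figure D1:**
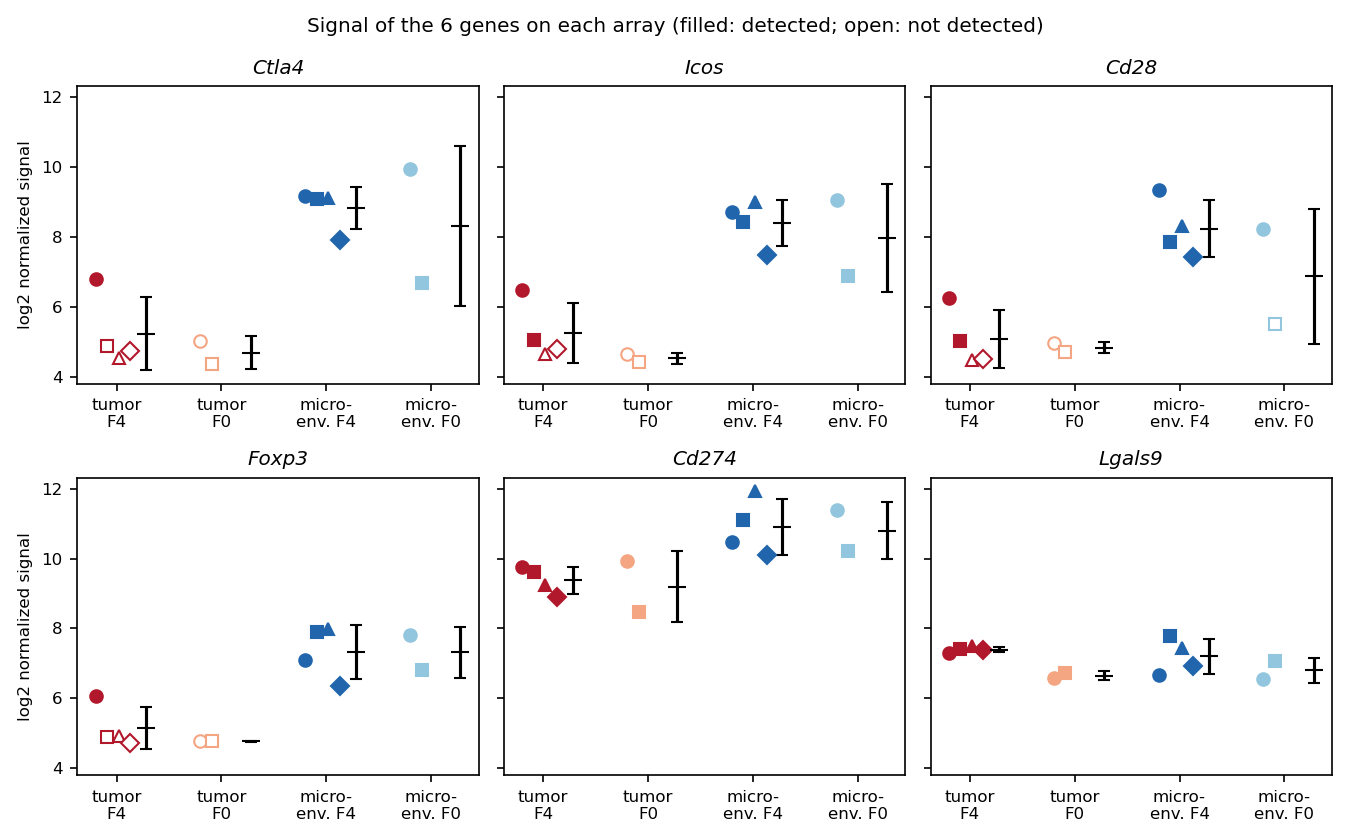
Each panel plots the log2 normalized signal of a gene on each array (circle A or B2, square B or B3, triangle C, diamond D) in 4 groups, with the group mean and SD in black beside them. Ctla4, Icos, Cd28 and Foxp3 were mostly not detected (open) in tumor cells and detected (filled) in microenvironment cells, Cd274 was detected on all 12 arrays, and Lgals9 lay between 6.56 and 7.80 throughout.

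The receptor genes on chromosome 1 and Foxp3 shared a pattern, near the detection limit on most tumor arrays and detected on nearly all microenvironment arrays. Ctla4 had a log2 signal of 6.79, 4.87, 4.54 and 4.74 on tumor F4 arrays A to D and of 5.03 and 4.36 on tumor F0 arrays B2 and B3. In the microenvironment its signals were 9.17, 9.09, 9.11 and 7.91 in F4 and 9.93 and 6.69 in F0. It was detected on 1 of 4 tumor F4 arrays, 0 of 2 tumor F0 arrays, 4 of 4 microenvironment F4 arrays and 2 of 2 microenvironment F0 arrays. The one tumor array with detected Ctla4 was F4 A, which also had the highest T cell mean of the tumor arrays. The lowest microenvironment array was F0 B3, which lay just below tumor F4 A, while within each line the fractions did not overlap.

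Icos, the receptor gained on activation, had signals of 6.50, 5.06, 4.65 and 4.79 on tumor F4 arrays and 4.64 and 4.41 on tumor F0 arrays. Its microenvironment signals were 8.71, 8.44, 8.99 and 7.48 in F4 and 9.06 and 6.88 in F0. It was detected on tumor F4 A and B, on no tumor F0 array and on all 6 microenvironment arrays, and every microenvironment array was above every tumor array. Cd28, the receptor of resting T cells, had 6.25, 5.03, 4.49 and 4.50 on tumor F4 arrays and 4.95 and 4.72 on tumor F0 arrays. Its microenvironment signals were 9.33, 7.85, 8.33 and 7.43 in F4 and 8.24 and 5.50 in F0. Microenvironment F0 B3 was low for Cd28 as well and was the only microenvironment array without detection, lying below tumor F4 A. The other Cd28 probes had the same order of fractions, with tumor F4 arrays at 6.23, 4.72, 4.86 and 4.56 against microenvironment F4 arrays at 8.99, 7.87, 8.20 and 7.49 on one of them. On the third probe tumor F4 arrays had 6.89, 4.55, 4.49 and 4.25 and microenvironment F4 arrays 9.20, 7.66, 8.49 and 7.28, so the 3 probes gave the same picture.

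Foxp3, which marks regulatory T cells, had 6.06, 4.90, 4.94 and 4.72 on tumor F4 arrays and 4.77 and 4.78 on tumor F0 arrays. Its microenvironment signals were 7.09, 7.90, 7.99 and 6.35 in F4 and 7.83 and 6.81 in F0. It was detected on tumor F4 A alone among tumor arrays and on all 6 microenvironment arrays, and the fractions did not overlap over all 12 arrays. Unlike the 3 receptor genes, its lowest microenvironment array was F4 D rather than F0 B3. Over the 6 microenvironment arrays the Pearson correlation of Ctla4 with Icos was 0.97 and with Cd28 0.86, against 0.72 with Foxp3, and that of Cd28 with Foxp3 was 0.41. These are descriptions over arrays that differ in T cell content.

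The ligand genes behaved differently from the receptors. Cd274 had signals of 9.75, 9.62, 9.25 and 8.90 on tumor F4 arrays and 9.92 and 8.48 on tumor F0 arrays. Its microenvironment signals were 10.47, 11.11, 11.93 and 10.10 in F4 and 11.38 and 10.23 in F0. It was detected on 12 of 12 arrays, and every microenvironment array was above every tumor array, though tumor F0 B2 and microenvironment F4 D were close. Lgals9 had 7.31, 7.40, 7.50 and 7.38 on tumor F4 arrays and 6.57 and 6.74 on tumor F0 arrays. Its microenvironment signals were 6.66, 7.80, 7.43 and 6.92 in F4 and 6.56 and 7.06 in F0. Lgals9 too was detected on 12 of 12 arrays, the fractions overlapped in both lines, and the 4 tumor F4 arrays were the tightest group. These orders depend on normalization. Mean raw intensities of Cd274 were 1360 in tumor F4 and 1314 in microenvironment F4, and 1578 and 933 in F0. For Lgals9 they were 419 and 178 in F4 and 286 and 132 in F0. With median scaling, the brightest tumor array for Cd274 (F0 B2, 9.92) still lay below the dimmest microenvironment array (F4 D, 10.12).

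By group mean, the order of levels from low to high was tumor F0, tumor F4, microenvironment F0 and microenvironment F4 for Ctla4, Icos, Cd28, Foxp3 and Cd274. Between the lines of a fraction, the arrays of neighbours in this order overlapped, except for Icos in tumor cells, where every F4 array was above both F0 arrays, on which it was not detected. Between tumor F4 and microenvironment F0, the middle neighbours, the arrays overlapped for Ctla4 and Cd28 and did not for Icos, Foxp3 and Cd274. For Foxp3 the last neighbours were 7.33 ± 0.77 (SD, n = 4) in microenvironment F4 and 7.32 ± 0.72 (SD, n = 2) in microenvironment F0. For Lgals9 the order was tumor F0 at 6.65 ± 0.12 (SD, n = 2), microenvironment F0 at 6.81 ± 0.35 (SD, n = 2), microenvironment F4 at 7.20 ± 0.51 (SD, n = 4) and tumor F4 at 7.40 ± 0.08 (SD, n = 4). Each of these groups overlapped with its neighbour in that order.

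Between tumor and microenvironment cells of F4 tumors, 5 of the 6 genes fell and Lgals9 did not pass the test. The comparison used limma, with a mean per group fitted to all 12 arrays and p-values adjusted over all 7894 genes by Benjamini-Hochberg, at a threshold of 0.05. Lower calls made up 11.4% of all genes tested, and calls in either direction 25.4%. Ctla4 averaged 5.24 ± 1.04 in tumor F4 and 8.82 ± 0.61 in microenvironment F4 (SD, n = 4 each), a log2 difference of -3.59 ± 0.67 (SE), or 12.01-fold lower in tumor cells (adjusted p = 0.0141). Icos averaged 5.25 ± 0.85 in tumor F4 and 8.40 ± 0.66 in microenvironment F4, a difference of -3.16 ± 0.52 (8.92-fold lower, adjusted p = 0.0104). Cd28 was 8.98-fold lower in tumor cells (-3.17 ± 0.60, adjusted p = 0.0147) and Foxp3 4.53-fold lower (-2.18 ± 0.41, adjusted p = 0.0147). Most tumor signals of these 4 genes were not detected, so their tumor means lie near the detection limit. Ctla4 and Foxp3 were each detected on 1 of 4 tumor F4 arrays and on no tumor F0 array. They met the filter of 2 arrays only through the microenvironment, a route that favours a lower call in tumor cells. Their calls are thus not independent of the filter. Of the 9 T cell markers, 9 fell as well, with a median difference of -4.47. Trat1 among them was detected on no tumor array, and Cd5 and Cd247 on 1 each. They too met the filter only through the microenvironment. The median over all genes was 0.19.

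Cd274 fell by less than the receptor genes, with 9.38 ± 0.38 in tumor F4 and 10.9 ± 0.80 in microenvironment F4 (SD, n = 4 each), a log2 difference of -1.52 ± 0.44 (2.87-fold lower, adjusted p = 0.0343). Means of 5 macrophage and dendritic cell markers, of 10 listed, were 6.43 to 9.97 on tumor F4 arrays and 8.24 to 10.5 on microenvironment F4 arrays, and their part in the Cd274 values was not tested. Lgals9 differed by 0.20 ± 0.25, with a 95% confidence interval of -0.34 to 0.73 (adjusted p = 0.540), so a rise or fall within that interval was not resolved. The dimmer of its 2 probes gave -0.19. In 5 genes all 4 tumor F4 arrays lay below all 4 microenvironment F4 arrays, which held for 8.96% of all genes in this direction. Leaving out tumor F4 B, C or D lowered the count of passing genes to 1, Icos, where 0.684% to 0.975% of all genes passed, because the adjusted p of Ctla4, Cd28 and Foxp3 moved to 0.0551 to 0.0575, with differences of -2.03 to -3.47. The call for Cd274 was also lost without microenvironment F4 A, B or C (adjusted p = 0.0534 to 0.0954). Without the 3 arrays that stand apart Icos differed by -3.88, Cd28 by -3.83 and Cd274 by -1.91. Of the tumor F4 arrays left, Icos and Cd28 were detected on B alone, so their sizes rest mostly on undetected tumor signals. Ctla4 and Foxp3 were detected on none of the 3 tumor F4 arrays that were left, so no size is given for them. The arrays left out were picked from these data by T cell and melanocyte marker means. Wider gaps without them are therefore no separate evidence.

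**Figure D2:**
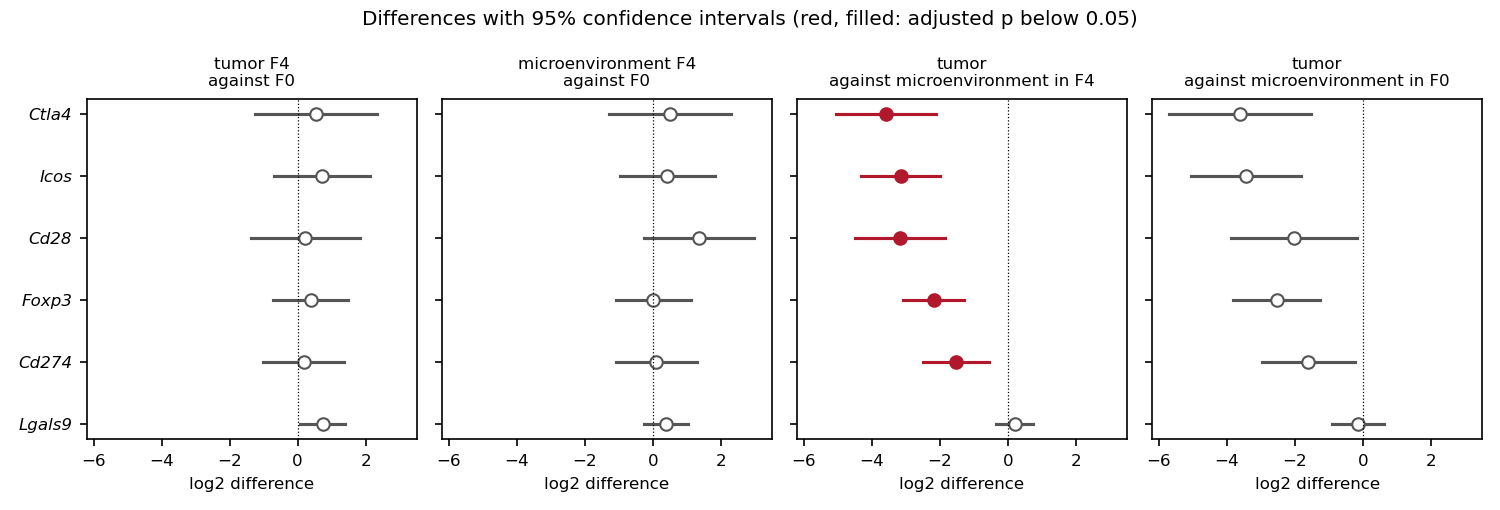
Each panel plots the log2 difference of the 6 genes with its 95% confidence interval for a comparison, with an adjusted p below 0.05 in red. Red points are seen in F4 for tumor against microenvironment, where Ctla4, Icos, Cd28, Foxp3 and Cd274 lay between -3.59 and -1.52. In F0 the same genes lay between -3.62 and -1.61 with wider intervals, and none passed. Cd28 was at -2.03 there, against -3.17 in F4. Ctla4, Icos, Cd28 and Foxp3 were not detected in tumor F0 cells, so their plotted F0 values rest on undetected tumor signals.

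In F0 tumors the same comparison rested on 2 arrays a fraction, and 0 of the 6 genes passed the test, where 37 of 7894 genes (0.469%) were called lower. At an unadjusted p below 0.05, 5 of the 6 passed, as did 24.8% of all genes. Ctla4, Icos, Cd28 and Foxp3 were detected on neither tumor F0 array, so their tumor level there is a bound. By group mean, Ctla4 was at least 9.19-fold lower in tumor F0 than in microenvironment F0 (adjusted p = 0.0813). Icos was at least 7.27-fold (adjusted p = 0.0570) and Foxp3 at least 4.61-fold lower (adjusted p = 0.0639). These bounds hold for the means alone, since microenvironment F0 B2 and B3 differed, with Ctla4 at 9.93 and 6.69. The confidence interval of the Ctla4 difference ran from -5.70 to -1.54. Cd28 was detected on 1 of 2 microenvironment F0 arrays. Its mean there was 3.38-fold the detection floor of the tumor arrays, which is not a lower bound (adjusted p = 0.176). Cd274 differed by -1.61 ± 0.63 (adjusted p = 0.157) and Lgals9 by -0.15 ± 0.35 (adjusted p = 0.787), with 0.28 on the dimmer Lgals9 probe. In 5 genes both tumor arrays lay below both microenvironment arrays, as in 23.6% of all genes.

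Both fractions of a replicate came from the same pooled tumors, so the pool can be used as a block. With it, 6.11% of all genes passed in F0, and 3 of the 6 did, namely Icos (adjusted p = 0.0233), Ctla4 (adjusted p = 0.0277) and Foxp3 (adjusted p = 0.0358), while Cd28 and Cd274 had 0.0623 and 0.0653. Microenvironment F0 B3 bore on these values, with Ctla4 at 6.69 beside 9.93 on B2. Without it, or without all 3 arrays that stand apart, the microenvironment F0 group holds 1 array and shows no spread. No p-value or count is therefore given for those fits. By pool, the difference between tumor and microenvironment was below 0 in 6 of 6 pools for Ctla4, Icos, Cd28, Foxp3 and Cd274. For Cd274, detected on every array, it was -0.72, -1.49, -2.68 and -1.20 in F4 pools A to D and -1.46 and -1.75 in F0 pools B2 and B3. For the other 4 no size is given by pool, since most of their tumor signals were not detected. For Lgals9 it was 0.65, -0.40, 0.07 and 0.46 in F4 pools and 0.01 and -0.32 in F0 pools, so the sign varied from pool to pool.

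Between F4 and F0 tumor cells none of the 6 genes passed the test, and among all 7894 genes 5 did (0.0633%). Lgals9, the galectin-9 gene, had the smallest p of the 6. It averaged 7.40 ± 0.08 in tumor F4 (SD, n = 4) and 6.65 ± 0.12 in tumor F0 (SD, n = 2), a difference of 0.74 ± 0.30 (1.67-fold, unadjusted p = 0.0301, adjusted p = 1.0). All 4 F4 arrays lay above both F0 arrays, an order that 5.43% of all genes had in this direction, and 1.99% of genes had an unadjusted p below 0.05. The dimmer Lgals9 probe had 6.79, 7.18, 7.06 and 7.06 on tumor F4 arrays and 6.81 and 6.53 on tumor F0 arrays, a difference of 0.35 with the groups overlapping. Macrophage and dendritic cell markers, which belong to cells known to express galectin-9, had means of 6.43 to 9.97 on tumor F4 arrays and 7.10 to 8.47 on tumor F0 arrays. Their part in the Lgals9 values was not tested.

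Cd274 differed by 0.18 ± 0.54 between F4 and F0 tumor cells, with a 95% confidence interval of -1.01 to 1.38, so changes of up to these sizes were not resolved. Icos was above F0 on every F4 tumor array, but it was not detected on either F0 array. Its F4 mean, with 2 of 4 arrays detected, was 1.10-fold the floor of the F0 arrays. By the same reckoning Ctla4 and Foxp3, each detected on 1 of 4 F4 arrays, were 1.09-fold and 1.03-fold that floor. Cd28 did not exceed it (adjusted p = 1.0 for all 4). Undetected F4 signals entered these means as measured, so the values are not lower bounds. The 95% confidence interval for Ctla4 was -1.26 to 2.34. Without tumor F4 A, Ctla4 and Foxp3 were detected on no tumor array of either line, and Icos and Cd28 on 1, so their difference between lines could not be sized. The T cell markers moved beside these genes, with a median difference of 1.26 and 0 of 9 passing. When the T cell mean of each array was subtracted from every gene, all 6 genes lay lower in F4 tumor cells, from -0.82 for Cd274 to -0.26 for Lgals9, with none passing, beside a median over all genes of -1.02. Of the 9 markers, 0 were detected on every tumor F0 array and 1 on every tumor F4 array. Undetected signals thus enter the subtracted mean, and for Ctla4, Icos, Cd28 and Foxp3 the gene's own signals were mostly undetected too.

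In the microenvironment the F4 and F0 arrays overlapped for all 6 genes, and none passed. Over all genes limma called 0 (0%), 2.36% had an unadjusted p below 0.05, and 5.27% had arrays that did not overlap. Cd28 differed most, by 1.36 ± 0.74 (unadjusted p = 0.0900, adjusted p = 0.999), with 8.23 ± 0.82 in F4 (SD, n = 4) and 6.87 ± 1.94 in F0 (SD, n = 2). The F0 array B3, in which Cd28 was not detected, set this value: without it the difference was -0.0045, and without B2 it was 2.73. Its 3 probes gave 1.36, 1.42 and 1.45. Ctla4 differed by 0.51 ± 0.82, Icos by 0.43 ± 0.64, Lgals9 by 0.39 ± 0.30 (0.82 on its dimmer probe), Cd274 by 0.10 ± 0.54 and Foxp3 by 0.02 ± 0.50. Without F0 B3, Ctla4 was at -1.11, Icos at -0.66, Foxp3 at -0.49 and Cd274 at -0.47, so their sign turned without that array. It also turned for Foxp3 without F4 B (-0.17) or F4 C (-0.20) and for Cd274 without F4 C (-0.24). The T cell markers had a median difference of 1.25, with 0 of 9 passing, and relative to the T cell mean of the array 5 genes lay lower in F4, from -1.04 for Foxp3 to -0.55 for Ctla4, and Cd28 lay at 0.30, with none passing, beside a median over all genes of -1.09.

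The F4 effect did not differ detectably between fractions. The difference between the effect in tumor cells and that in the microenvironment was 0.03 for Ctla4, 0.08 for Cd274, 0.29 for Icos, 0.35 for Lgals9, 0.36 for Foxp3 and -1.13 ± 1.04 for Cd28, all at an adjusted p of 1.0. The dimmer Lgals9 probe gave -0.47, of opposite sign. Over all genes limma called 0 (0%), and 1.13% had an unadjusted p below 0.05. The interval for Ctla4, -2.51 to 2.58, leaves sizeable differences unresolved with 2 F0 arrays a fraction.

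**Figure D3:**
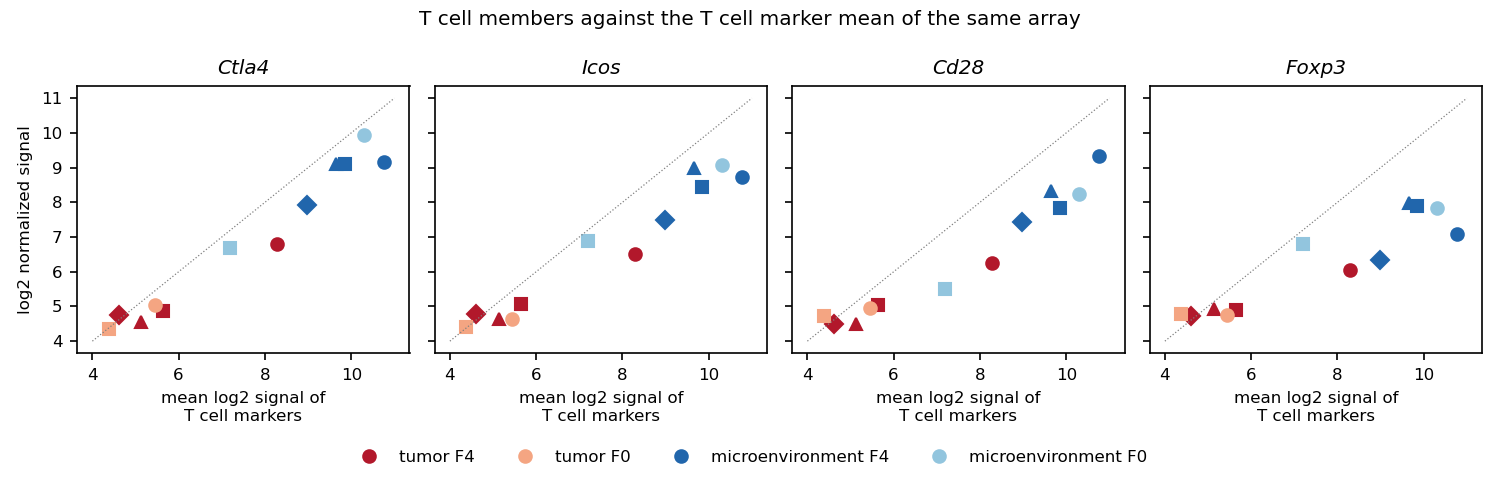
Each panel plots the log2 normalized signal of a gene against the mean log2 signal of 9 T cell markers on the same array (circle A or B2, square B or B3, triangle C, diamond D), and the dotted line marks equal values. Tumor F4 A, at a T cell mean of 8.29, sits between the other tumor arrays and most microenvironment arrays in all 4 panels, and microenvironment F0 B3, at 7.19, sits low among the microenvironment arrays.

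The wider pathway was described by 7 lists of genes. Between the fractions of F4 tumors, 11.4% of all genes were called lower in tumor cells and 25.4% in either direction. List genes detected on no tumor array, such as Slamf1 and Fyn, met the filter on detection only through the microenvironment. The same holds for those detected on 1 tumor array, among them Klrg1, Cd160, Lat, Nt5e and Gpr83. Lower calls of all these genes in tumor cells are thus not independent of the filter. Of the inhibitory receptors, 4 of 6 tested fell in F4 tumor cells against F4 microenvironment cells, with a median log2 difference of -1.99 over the list, beside 0.19 over all genes. Beside Ctla4 they were Btla (-1.87 ± 0.37, adjusted p = 0.0155), a receptor for the herpesvirus entry mediator, Klrg1 (-2.11 ± 0.46, adjusted p = 0.0181), found on late effector T cells and natural killer cells, and Cd160 (-2.55 ± 0.69, adjusted p = 0.0291). The galectin-9 receptor gene Havcr2, which encodes TIM-3, differed by -1.68 (adjusted p = 0.0596). Costimulatory receptors had the lowest median, -3.16, and 10 of 11 fell, among them Cd2 and Cd5, which are also in the T cell marker list. Tnfrsf4, which encodes OX40, differed by -3.52 ± 0.53 (adjusted p = 0.00696), Tnfrsf18, which encodes GITR, by -3.70 ± 0.67 (adjusted p = 0.0137), and Slamf1, detected on no tumor F4 array, was at least 2.37-fold lower (adjusted p = 0.0130).

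The ligand lists were mixed. Of 8 inhibitory ligands, 2 fell in F4 tumor cells, Cd274 and the phagocytosis brake Cd47 (-1.01 ± 0.34, adjusted p = 0.0495), and 1 rose, Nectin2, a ligand of TIGIT and DNAM-1 (1.33 ± 0.41, adjusted p = 0.0396). The median of that list was -0.21, and its calls stand beside 11.4% of all genes called lower and 25.4% in either direction. Of 4 costimulatory ligands, the CD28 and CTLA-4 ligands Cd80 (-2.11 ± 0.46, adjusted p = 0.0181) and Cd86 (-2.42 ± 0.73, adjusted p = 0.0369) fell, and the median was -1.85. Among the regulatory T cell genes 7 of 11 fell, with a median of -1.67, among them Tnfrsf18, Ctla4, Foxp3 and the integrin gene Itgae (-2.53 ± 0.47, adjusted p = 0.0141). These lists share Ctla4 and Tnfrsf18, so their counts are not independent.

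Of 10 genes of signalling below CD28 and ICOS, 8 fell, with a median of -1.72, beside 11.4% of all genes called lower. The kinase gene Zap70 differed by -3.61 ± 0.84 (adjusted p = 0.0205) and the adaptor gene Lat by -2.72 ± 0.63 (adjusted p = 0.0205). The exchange factor gene Vav1 differed by -2.72 ± 0.67 (adjusted p = 0.0236). The kinase gene Fyn was detected on no tumor F4 array and on 3 of 4 microenvironment F4 arrays. Its microenvironment mean was 1.86-fold the tumor floor (adjusted p = 0.0198). On the interferon gamma route to Cd274, 6 of 10 fell, with a median of -1.61. The receptor genes Ifngr1 (-2.92 ± 0.58, adjusted p = 0.0155) and Ifngr2 (-3.13 ± 0.67, adjusted p = 0.0179), the kinase gene Jak2 (-1.71 ± 0.26, adjusted p = 0.00710) and the factor gene Irf2 (-1.59 ± 0.34, adjusted p = 0.0179) were among them. All 4 were detected on every array of tumor F4, unlike the T cell receptors above.

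In F0 tumors 1 gene of these lists passed between fractions, Tnfrsf4 (-4.21 ± 0.74, adjusted p = 0.0306), as did 0.532% of all genes. Tnfrsf4 was detected on 1 of 2 tumor F0 arrays, and its mean of 5.18 there lay near the detection floor, 5.11 on both arrays. Of the genes with the smallest p in the other lists, Cd80, Tnfrsf18 and Zap70 were not detected in tumor F0. By group mean they were at least 3.92-fold, 14.9-fold and 8.58-fold lower there, and none passed. Cd86 differed by -3.05, Vav1 by -2.96, Ifngr2 by -3.86, Jak2 by -1.62 and Btla by -1.92 there, and the ligand genes Nectin2 and Cd276 by 1.59 and 1.34, without passing.

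Between F4 and F0, none of the lists had a passing gene in either fraction. In tumor cells the medians of the 7 lists were 0.10 to 0.51, beside -0.02 over all genes. Of the 2 genes with the smallest p in each list, Lgals9 alone had an unadjusted p below 0.05. Against the floor of the F0 arrays, the F4 mean was 1.48-fold for Itgae, 1.33-fold for Zap70, 1.15-fold for Cd5 and 1.10-fold for Cd80. Each was not detected in tumor F0. They were detected on 3, 2, 1 and 2 of the 4 tumor F4 arrays, so these values are not lower bounds. Cd86 differed by 0.79, Nrp1 by 0.47, Cmtm4 by 0.42, Pik3r1 by 0.39, Nectin2 by -0.39 and Myc by -0.44, and Klrg1, not detected in tumor F0, had no bound above 1.

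In the microenvironment the medians were -0.06 to 0.72, beside -0.03 over all genes. The smallest p were those of Tnfrsf25 (unadjusted p = 0.0151) and Tnfsf9 (unadjusted p = 0.0244), both at an adjusted p of 0.999. Neither was detected on a microenvironment F0 array. Tnfrsf25, encoding the receptor DR3, was at least 1.46-fold higher in F4 by group mean. For Tnfsf9, encoding the 4-1BB ligand, the F4 mean was 1.92-fold the floor of the F0 arrays. It was detected on 3 of 4 microenvironment F4 arrays, so that value is not a lower bound. Lat differed by 1.35, Il10 by 1.04, Klrg1 by 0.76, Itgae by 0.69, Ifngr1 by 0.57, Fyn by 0.53, Ceacam1 by 0.42, Cd80 by 0.27 and Cmtm4 by -0.46, none with an unadjusted p below 0.05.

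**Figure D4:**
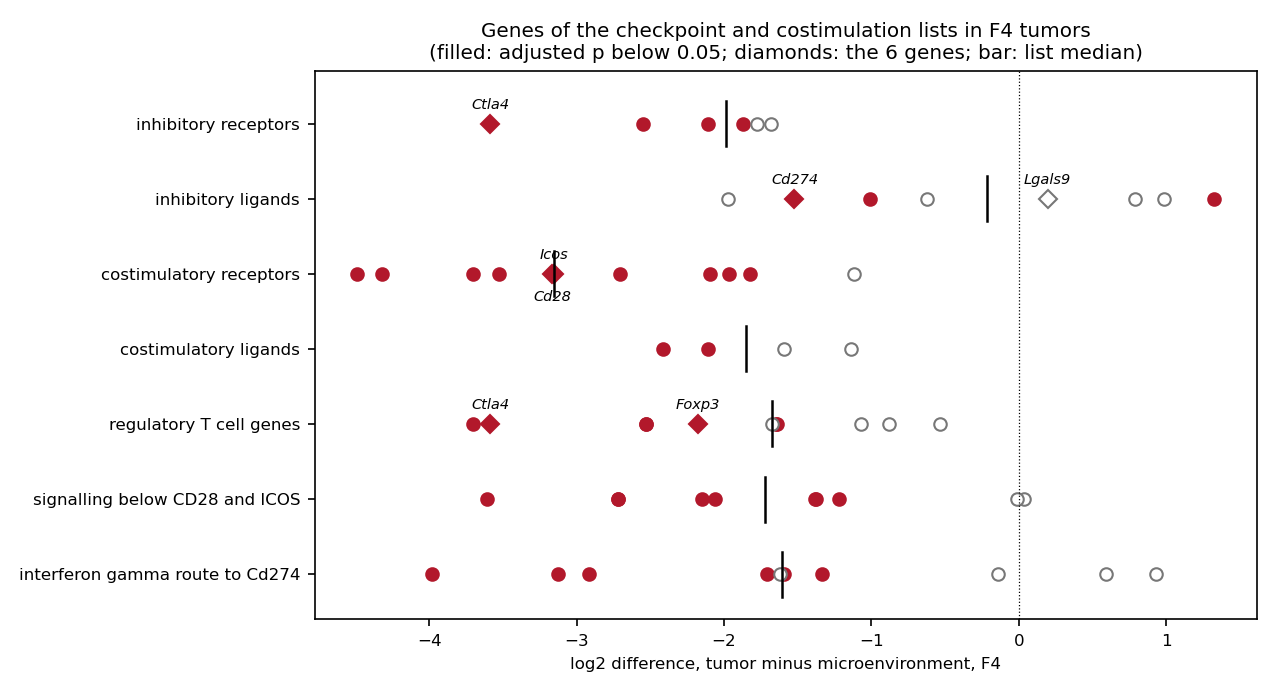
Each row plots the log2 difference of tumor minus microenvironment cells in F4 for the tested genes of a list, with diamonds for the 6 genes, filled symbols for an adjusted p below 0.05 and a bar at the list median. The costimulatory receptors have the lowest median, -3.16, and the inhibitory ligands, at -0.21, spread on both sides of 0.

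The genes whose signal over the 12 arrays was most like each of the 6 were named by Pearson correlation among the 7894 genes, as a description over arrays that fall into 2 fractions. For Ctla4 they were Vopp1 (0.99), Cish (0.99), a cytokine signalling inhibitor, and Ifngr1 (0.99). For Icos they were Sorl1 (0.99), Ctla4 (0.99) and Stat4 (0.99), a transcription factor downstream of interleukin-12. For Cd28 they were the chemokine receptor gene Cxcr3 (0.99), Gimap3 (0.99) and Fam102a (0.99), and for Foxp3 Cmtm6 (0.99), whose product stabilizes PD-L1 at the cell surface, Slco4a1 (0.99) and Rab8b (0.98). For Cd274 they were Edn1 (0.97), Pcgf5 (0.97) and Samhd1 (0.97). Lgals9 had no gene as close, with Cavin2 at 0.87, I830077J02Rik at 0.84 and Tlcd2 at 0.82.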

How the data were processed

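Per the labels' protocols, total RNA of each sorted pool was amplified, biotinylated and hybridized to Illumina mouse bead arrays, which were read with GenomeStudio per the submitters' processing notes, its version not being given in the sources used here. For 25697 probes on 12 arrays, the deposited table holds, per the file headers, an intensity without normalization and a detection p-value. The authors' deposited processed intensity of 12824 probes, whose normalization is unknown, served as an alternative.

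The work was done with limma 3.58.1 in R 4.3.3, starting from neqc (normexp background correction from the detection p-values, offset 16, quantile normalization, log2). The filter kept the 11224 probes detected (p below 0.01) on 2 arrays or more. Of all probes 12096 had 1 gene symbol, 0 several and 13601 none, and 12090 symbols matched RefSeq by Entrez identifier. The brightest probe stood for a gene, giving 7894 genes. Quantile normalization gives both fractions a common distribution although they differed in detected probes. Adjusted p-values come from a limma group-means fit with empirical Bayes moderation (residual degrees of freedom 8, prior 3.44 in the main fit) and Benjamini-Hochberg adjustment. With the replicate block, comparisons that involve both fractions come instead from a fit with a term for each pool. That fit and those with arrays left out have fewer residual degrees of freedom. A gene not detected on any array of a group has a bound there: "at least" is the mean of the brighter group over a floor, taken on each array as the lowest signal of a detected probe or as the signal of the gene where that is higher. Undetected signals of the brighter group enter its mean as measured. The value is thus a bound on the means only where the brighter group was detected on all its arrays. The number of arrays limits the precision, and groups of 2 and 4 pools give the spread between pools.

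The 6 genes and all lists were chosen with earlier results of these data known. Beside the 6, the text names from each list every passing gene, or the 4 with the smallest p where more passed, or the 2 with the smallest p where none did. Havcr2 was named after its values were seen. The fit was tested on simulated data. In all 25 alternatives were tried, and the closing section gives their effect. The pool labels pair the fractions: the deviations of the fractions of a pool from their group means correlated at 0.11, 0.10, -0.072 and 0.58 in F4 pools A to D and at 0.41 in both F0 pools. In F0 this is a single value, since the deviations of 2 arrays from their mean mirror each other. The pairing rests on the labels, since both fractions were sorted from the same pooled tumors.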

Additional observations from a re-analysis of the deposited data

Results flagged for a closer look

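Within groups of 4 arrays, 3 of the 12 sets of signals (6 genes in tumor F4 and microenvironment F4) had an array far from the others by Dixon's criterion at the 95% level, the gap to the nearest array over the whole range. Ctla4 on tumor F4 A, at 6.79 beside 4.54 to 4.87 on the other F4 tumor arrays, had a ratio of 0.853. Foxp3 on the same array, at 6.06 beside 4.72 to 4.94, had a ratio of 0.840. Ctla4 on microenvironment F4 D, at 7.91 beside 9.09 to 9.17, had a ratio of 0.936. Chance alone takes about 1 in 20 groups past this criterion. The T cell marker mean was also highest of its group on tumor F4 A, at 8.29, and lowest of its group on microenvironment F4 D, at 8.98, and its part in these values was not tested.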

How the results depend on the processing

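Between F4 and F0, in either fraction and for the difference between fractions, none of the 6 genes passed under any of the 22 to 24 alternatives run. The signs were less firm. In tumor cells the difference turned for Cd28 with array weights (-0.12) and without the 3 arrays that stand apart (-0.17), and for all 6 genes after subtraction of the T cell mean: -0.46 for Ctla4, -0.82 for Cd274, -0.29 for Icos, -0.78 for Cd28, -0.26 for Lgals9 and -0.62 for Foxp3. Leaving out an array at a time gave -0.54 to 0.91 for Cd274 and -0.17 to 0.42 for Cd28. In the microenvironment the T cell subtraction gave -0.55 for Ctla4, -0.96 for Cd274, -0.63 for Icos, -0.67 for Lgals9 and -1.04 for Foxp3, and without the 3 arrays Ctla4 lay at -0.81, Cd274 at -0.20, Icos at -0.35 and Foxp3 at -0.16. Leaving out an array gave -1.11 to 2.14 for Ctla4, -0.47 to 0.67 for Cd274, -0.66 to 1.52 for Icos, -0.0045 to 2.73 for Cd28 and -0.49 to 0.53 for Foxp3. The difference between the effects turned for Ctla4 with an offset of 50 (-0.058), for Lgals9 with the mean of its probes (-0.060), and with array weights for Ctla4 (-0.68), Cd274 (-0.16), Icos (-0.13), Lgals9 (-0.10) and Foxp3 (-0.36). Leaving out an array gave -1.59 to 1.65 for Ctla4, -0.64 to 0.80 for Cd274, -0.80 to 1.38 for Icos, -2.50 to 0.23 for Cd28 and -0.15 to 0.87 for Foxp3. Between fractions in F4, 5 genes passed, and 1 to 5 with an array left out. After the T cell subtraction 2 passed, Cd274 and Lgals9, both higher in tumor cells, as were 95.3% of all genes, so these are not the same calls. That subtraction moved the median of all genes to 4.08 in F4 and 4.02 in F0 and turned Ctla4 (0.31), Cd274 (2.37), Icos (0.74), Cd28 (0.73) and Foxp3 (1.71) in F4 and Ctla4 (0.22), Cd274 (2.23), Icos (0.39), Cd28 (1.80), Lgals9 (3.68) and Foxp3 (1.29) in F0, all below that median. Lgals9 turned in F4 with median scaling (-0.042) and array weights (-0.26), and in F0 with the mean of its probes (0.065) and without the 3 arrays (0.097), and lay at -0.40 to 0.097 with an array left out. In F0 the count of 0 became 3 with median scaling, with array weights and with the replicate block. It became 1 after the T cell subtraction (Lgals9, higher, as 85.6% of all genes were called). With an F4 array left out it was 0 to 3 (3 without tumor F4 A, 2 without microenvironment F4 D). Fits that leave 1 array in an F0 group are given no count. The paired fit with the replicate block changed no other count. Median scaling put the median of all genes at -0.32 in F4 and -0.35 in F0, beside 0.19 and 0.18, and called 414 genes higher and 2201 lower in F4 (1109 and 897 with quantile normalization), 16 and 1028 in F0 (5 and 37), and 11 and 2 between lines in tumor cells (1 and 4). Quantile normalization within each fraction called 13 and 20 between lines in tumor cells, and the values processed by the authors gave 0 and 5 there and 23 and 45 between fractions in F0. The causes were not tested. Signals of Ctla4, Icos, Cd28 and Foxp3 in tumor cells lay mostly within background, which limits any comparison of lines there.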
